A study of Gallus gallus with 12 samples.

Results

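Microglia of heat-conditioned chicks that had received lipopolysaccharide (LPS) were set against microglia of heat-conditioned chicks that had received saline. Their libraries were chosen by title alone and make up 6 of the 12 in the series, with 3 in the LPS conditioned group and 3 in the Saline conditioned group. All 6 came from chicks (Gallus gallus) kept at 39°C for 24 h on day 3 after hatching. LPS or its saline vehicle was given into the third ventricle of the brain on day 10, and cells were collected 24 h later, on day 11. Each library came from microglia sorted by FACS out of the pooled anterior hypothalami of 10 to 12 chicks, so a replicate is a pool of birds and differences between single birds are not seen. The injected agent is the one difference between both groups that the labels give, and the labels name neither strain nor sex. The other 6 libraries, 3 LPS non-conditioned and 3 Saline non-conditioned, came from chicks of the same age without the day 3 heat. They serve here to estimate the spread between pools and to show the same genes without conditioning.

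Microglia are the resident macrophages of the brain. LPS, a component of the outer membrane of Gram-negative bacteria, is sensed by macrophages mainly through Toll-like receptor 4, which activates NF-κB and the transcription of cytokine, chemokine and other defence genes. The anterior hypothalamus holds neurons that control body temperature, and a mild heat exposure soon after hatching is known to raise the heat tolerance of chickens later in life. The comparison asks which microglial transcripts differ a day after LPS in birds with such an early heat exposure.

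Total counts were 468415, 504861 and 451683 in the LPS conditioned libraries (replicates 1 to 3), against 589900, 236219 and 963146 in the Saline conditioned libraries. The 3 LPS pools were thus sequenced to much the same depth, while the deepest saline library held several times the counts of the shallowest. Levels are given as CPM, a gene's count relative to the TMM-scaled total of its library over the genes tested. A library's floor of 3 counts corresponds to 5.94 to 6.64 CPM of total counts in the LPS conditioned libraries and 3.12 to 12.7 CPM in the Saline conditioned libraries. The files identify genes by versioned Ensembl identifiers, none of which (0 of 11207) matched the reference gene list, so no gene symbol or role is given for any gene. For the same reason the labelled cell type was not checked against markers of microglia, neurons or other cells. In such bulk samples a lower level of a transcript could mean fewer cells of a type in the pool or less RNA per cell, which cannot be told apart.

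The effect of LPS was estimated in one fit on all 12 libraries, with 1 common estimate of the spread for the 4 groups, and in another on the 6 conditioned libraries alone. Genes with an adjusted p under 0.05 in edgeR's quasi-likelihood test (Benjamini-Hochberg over all tested genes) are referred to as called. With all 12 libraries, 6 genes rose and 3 fell after LPS among 5170 tested, a called share of 0.174%, with 0.116% higher and 0.058% lower. With the 6 libraries alone 28 genes rose and 26 fell among 4715, a called share of 1.15%, with 0.594% higher and 0.551% lower. The fits shared 8 called genes, 46 were called with the 6 libraries alone, and 1 was called with 12 libraries and fell under the filter on low counts in the smaller fit. In the fit on 12 libraries, 406 genes (7.85%) had an unadjusted p under 0.05, of which 206 were higher and 200 lower with LPS. In the fit on 6 libraries there were 562 such genes (11.9%), of which 269 were higher and 293 lower. The median log2 fold change of all tested genes was 0.00 in both fits.

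The count of 9 genes changed when single pools were left out. A fit with fewer pools also has less power, which was not told apart from the weight of a particular pool. Without Saline conditioned replicate 3, the deepest library, 2 genes were higher and 0 lower (edgeR, adjusted p under 0.05), and without LPS conditioned replicates 1, 2 and 3 the count was 4, 4 and 5. Leaving out a pool that is not part of the comparison also moved it, to 22 (15 higher, 7 lower) without Saline non-conditioned replicate 3 and to 14 (9 higher, 5 lower) without LPS non-conditioned replicate 1. The count of 54 genes became 18 (13 higher, 5 lower) without LPS conditioned replicate 2 and 89 (52 higher, 37 lower) without Saline conditioned replicate 1. Of the 54 genes, 16 were among the 18 and 45 among the 89.

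ENSGALG00000027716.2 had the largest rise among the genes called in both fits. It stood at 4046, 1672 and 2084 CPM in the LPS conditioned libraries, against 676, 545 and 579 CPM in the Saline conditioned libraries. Every LPS pool lay above every saline pool, and LPS replicate 1 stood well above the other two. The log2 fold change was 2.11 ± 0.29 (SE) with 12 libraries (edgeR adjusted p = 0.000563) and 2.10 ± 0.23 with 6 libraries (edgeR adjusted p = 0.000292). It remained called in all 20 alternatives of the larger fit and all 15 of the smaller one, with log2 fold changes from 1.63 to 2.34.

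ENSGALG00000020316.5, a gene of low abundance, followed. It stood at 70.2, 83.0 and 72.5 CPM in the LPS conditioned libraries (32, 40 and 32 counts), against 23.8, 8.45 and 19.6 CPM in the Saline conditioned libraries (13, 2 and 19 counts). The groups did not overlap, and Saline conditioned replicate 2, the lowest, was also the shallowest library and lay under the floor of 3 counts. The log2 fold change was 1.97 ± 0.31 (SE) with 12 libraries (edgeR adjusted p = 0.00324) and 1.95 ± 0.30 with 6 libraries (edgeR adjusted p = 0.00247). With 12 libraries, leaving out Saline conditioned replicate 3 ended the call (edgeR adjusted p = 0.0560, the highest of its alternatives). The lowest edgeR adjusted p, 1.50e-05, came with no filter on low counts, and the next lowest was 0.00101 with DESeq2. With 6 libraries the call held in all 15.

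Of the genes that fell, ENSGALG00000004871.6 is the one called in both fits whose counts were well above the floor in each library. It had 145, 122 and 152 CPM in the LPS conditioned libraries, against 220, 317 and 305 CPM in the Saline conditioned libraries. The LPS pools lay close together, and all 3 were below the lowest saline pool. The log2 fold change was -0.997 ± 0.20 (SE) with 12 libraries (edgeR adjusted p = 0.0305) and -1.003 ± 0.17 with 6 libraries (edgeR adjusted p = 0.00553). With 12 libraries 6 of 20 alternatives ended the call, at adjusted p of 0.0631 to 0.375, with log2 fold changes from -1.06 to -0.92. These were quantile normalization in limma and leaving out any LPS conditioned pool or Saline conditioned replicate 2 or 3. With 6 libraries the call ended without LPS conditioned replicate 2 alone (edgeR adjusted p = 0.0743, the highest of its alternatives). The lowest edgeR adjusted p, 6.61e-06, came with no filter on low counts, and the next lowest was 0.000255 with a replicate block.

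ENSGALG00000035309.2 was almost lost after LPS. It had 3, 3 and 0 counts in the LPS conditioned libraries, against 39, 6 and 147 counts in the Saline conditioned libraries. In CPM these were 6.58, 6.22 and 0, against 71.4, 25.3 and 151. All LPS libraries were at or under the floor, and a single saline library gave 147 of the 192 saline counts. Counts summed over the group and divided by the summed totals were 25.5 times lower with LPS (exact Poisson 95% interval 11.5 to 70.3, counting error only), and 12.9 times lower without Saline conditioned replicate 3 (interval 5.502 to 37.1). The fitted log2 fold change of -4.32 ± 0.67 with 12 libraries (SE, edgeR adjusted p = 0.00309) depends on the prior count. Leaving out Saline conditioned replicate 3 gave -3.52 and no call (edgeR adjusted p = 0.0560). Quantile normalization in limma ended the call as well (limma adjusted p = 0.0701). With 6 libraries the log2 fold change was -4.40 ± 0.64 (SE, edgeR adjusted p = 0.00162). There the call ended in limma with quantile normalization and with library weights (limma adjusted p = 0.0696 and 0.0539), and held without Saline conditioned replicate 3 (edgeR adjusted p = 0.00811).

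**Figure D1:**
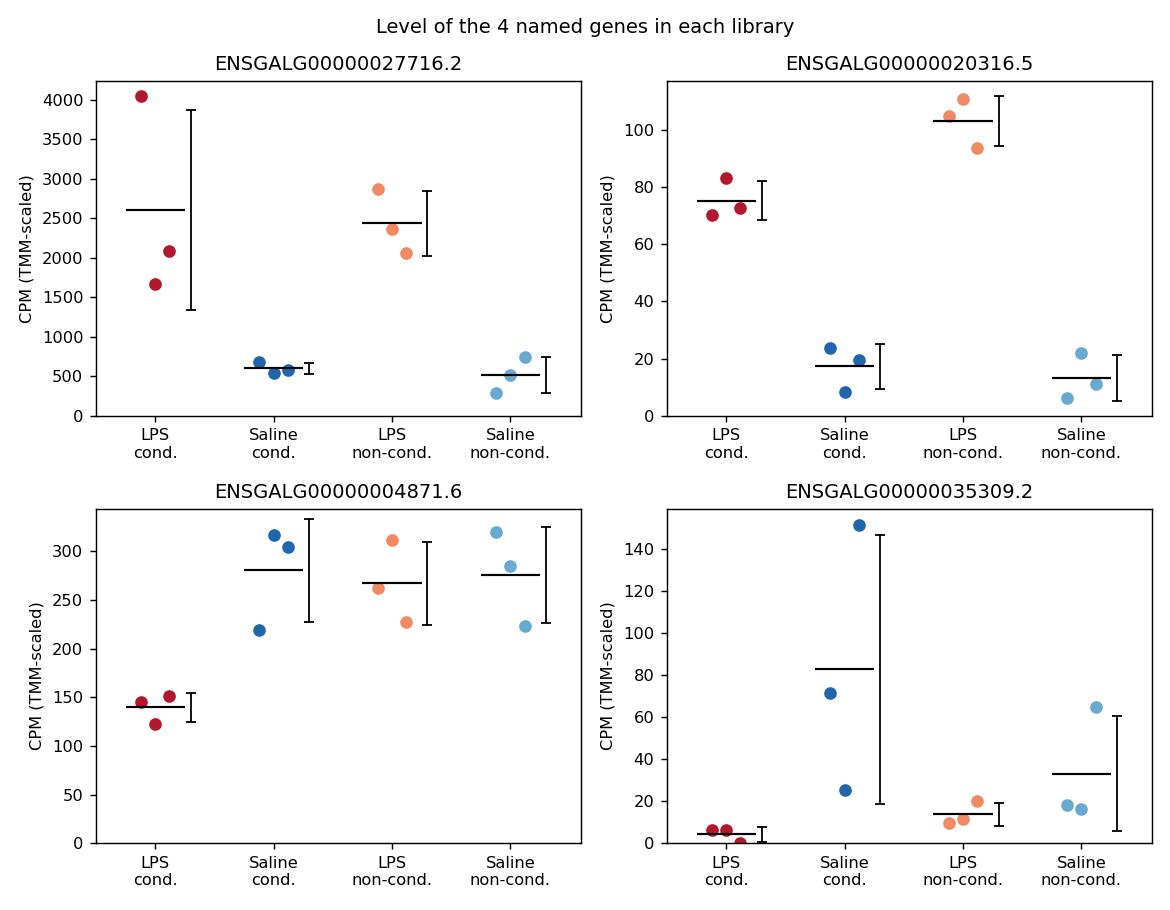
Level in CPM of the 4 genes given by identifier, in each of the 12 libraries. Points are libraries, horizontal lines are group means and the bars beside them are 1 SD (n = 3), ended at 0 where they would pass below it. LPS conditioned pools lie apart from Saline conditioned pools in all 4 genes, and in ENSGALG00000004871.6 and ENSGALG00000035309.2 they also lie below both non-conditioned groups. For ENSGALG00000035309.2 that order rests on values near the floor. Its counts were 3, 3 and 0 in LPS conditioned, 3, 7 and 6 in LPS non-conditioned and 6, 3 and 29 in Saline non-conditioned libraries.

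The 28 genes that rose in the fit on 6 libraries did so by log2 fold changes of 0.47 to 2.10, with a median of 0.88. They were expressed at a median of 336 CPM over both conditioned groups, within a range of 37.7 to 35026 CPM, where all 4701 genes tested in both fits had a median of 63.5 CPM. Of them, 7 exceeded 1000 CPM. The most abundant stood at 46921, 40185 and 45384 CPM in the LPS conditioned libraries, against 21289, 30259 and 26115 CPM in the Saline conditioned libraries. Averaged over both groups it was the most abundant of the tested genes, and its log2 fold change was 0.76 ± 0.11 with 6 libraries (SE, edgeR adjusted p = 0.00167). Quantile normalization in limma gave 0.31 and ended that call (limma adjusted p = 0.412). That setting gives all libraries the same distribution of values, which limits the change of a gene at the top of it. It therefore cannot decide on this gene. The other 14 of 15 alternatives kept the call. With 12 libraries the same change was 0.77 ± 0.22 and was not called (edgeR adjusted p = 0.262).

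The next in abundance had 18769, 19385 and 18281 CPM in the LPS conditioned libraries, against 9806, 12494 and 12042 CPM in the Saline conditioned libraries. Its LPS pools differed by little and all lay above the saline pools, with a log2 fold change of 0.71 ± 0.10 with 6 libraries (SE, edgeR adjusted p = 0.00162). With 12 libraries the change was 0.72 ± 0.21 and was not called (edgeR adjusted p = 0.273). The third had 10644, 13600 and 9071 CPM in the LPS conditioned libraries, against 7227, 6161 and 6099 CPM in the Saline conditioned libraries. Its log2 fold change was 0.77 ± 0.13 with 6 libraries (SE, edgeR adjusted p = 0.00543). With 12 libraries it was 0.77 ± 0.23 and was not called either (edgeR adjusted p = 0.273). These 3 genes together took 7.43%, 6.99% and 7.11% of all counts in the LPS conditioned libraries, against 3.55%, 4.90% and 4.46% in the Saline conditioned libraries. The other 25 genes that rose took 2.19%, 1.98% and 1.96%, against 1.09%, 1.18% and 1.14% with saline. These shares describe genes chosen for being higher, so no test is given for them.

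The 26 falls in the same fit had log2 fold changes of -4.40 to -0.58, with a median of -1.02. They were expressed at a median of 167 CPM, between 30.4 and 2937 CPM, and 2 of them exceeded 1000 CPM. The 2 most abundant fell by 0.58 and 0.63 on the log2 scale, among the smallest changes of the list. Together the 26 took 0.654%, 0.556% and 0.658% of counts in the LPS conditioned libraries, against 0.959%, 1.15% and 1.15% in their Saline conditioned counterparts.

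In the 3 largest falls called in either fit the saline pools also differed widely. Besides ENSGALG00000035309.2, a gene called with 12 libraries alone had 2 counts over the 3 LPS conditioned libraries, against 67 over the Saline conditioned libraries, 50 of them in replicate 3. Its counts per total were 26.7 times lower with LPS (exact Poisson 95% interval 7.10 to 225, counting error only), and 14.7 times lower without Saline conditioned replicate 3 (interval 3.48 to 131). It was called in 12 of 20 alternatives, with edgeR adjusted p of up to 0.384, the highest without that same library. Without conditioning this gene had 12, 5 and 4 counts with LPS, against 3, 0 and 3 counts with saline, all few. Its log2 fold change there was 1.53, of the opposite sign and not called (edgeR adjusted p = 0.578). The difference between its LPS effects with and without conditioning was not called either (edgeR adjusted p = 0.217). Another gene had 43.9, 49.8 and 36.2 CPM in the LPS conditioned libraries, against 134, 266 and 610 CPM in the Saline conditioned libraries. Without conditioning it ranged far more widely, at 4538, 301 and 906 CPM with LPS and 42.7, 5913 and 35.7 CPM with saline. Its log2 fold change of -3.02 ± 0.43 with 6 libraries was called (SE, edgeR adjusted p = 0.00162), and that of -2.99 ± 1.32 with 12 libraries was not (edgeR adjusted p = 0.588). Without Saline conditioned replicate 3 the fit on the conditioned libraries gave -2.11 and the call held. Saline conditioned replicate 3 was the highest of the saline pools in each of the 4 largest falls, and its part in them beyond the values without it was not tested.

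**Figure D2:**
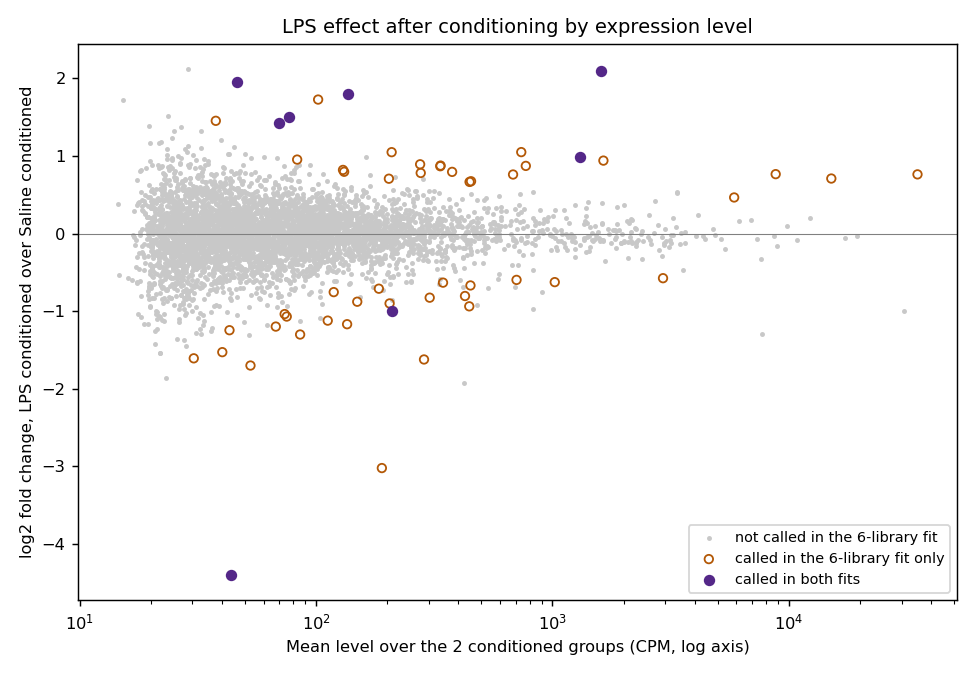
Log2 fold change of LPS conditioned over Saline conditioned in the fit on 6 libraries, against the mean level in CPM on a log axis, for the 4701 genes tested in both fits. Filled points are the 8 genes called in both fits, open points the 46 called with 6 libraries alone. The 3 called genes of highest level all rose, and the fall near -4.4 is ENSGALG00000035309.2.

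Calls were unevenly spread over expression level. In 5 bands of 940 or 941 genes each, the highest band (162 CPM and above) held 19 of the 28 rises and 13 of the 26 falls, which is 2.02% and 1.38% of its genes. The lowest band (14.6 to 31.0 CPM) held 0 rises and 1 fall. The median standard error of a log2 fold change was 0.15 in the highest band and 0.39 in the lowest. A weakly expressed gene that was not called is therefore not shown to be unaffected.

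The groups of pools did not overlap in 53 of the 54 genes, where 812 of 5170 tested genes (15.7%) had no overlap, 7.89% with all LPS conditioned pools higher and 7.81% with all lower. In the remaining gene LPS conditioned pools had 171, 133 and 138 CPM, against 386, 152 and 738 CPM in Saline conditioned pools. No overlap was not part of the rule for calling, but both use the same 6 libraries.

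The estimates of change were nearly the same in both fits, and the errors were not. For the 54 genes the log2 fold change differed between the fits by at most 0.077. Its standard error was larger with 12 libraries in 54 of 54 genes, with a median of 0.24, against 0.18 with 6 libraries. The ratio of the errors ran from 1.04 to 3.09. These 54 genes were called with 6 libraries, which favours a small error there, so their numbers are a description. Over all genes tested in each fit, which were not quite the same genes, the median error was 0.302 with 12 libraries and 0.252 with 6. All 46 genes called with 6 libraries alone had an unadjusted p under 0.05 with 12 libraries in edgeR, where 7.85% of all genes did. Their edgeR adjusted p with 12 libraries lay between 0.104 and 0.588. Both fits take the change from the same conditioned libraries, so a low unadjusted p in the larger fit is no separate support.

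The spread between pools was smaller in the conditioned than in the non-conditioned libraries. The biological coefficient of variation, which is the spread between pools relative to the mean beyond counting error, was 0.141 over the 6 conditioned libraries, 0.214 over the 6 non-conditioned ones and 0.176 over all 12. By group it was 0.121 in LPS conditioned, 0.158 in Saline conditioned, 0.183 in LPS non-conditioned and 0.248 in Saline non-conditioned libraries. Leaving out 1 conditioned pool at a time gave 0.122 to 0.152 for the conditioned libraries. Leaving out 1 non-conditioned pool at a time gave 0.186 to 0.236 for the non-conditioned ones. Such sets share most of their pools, so these ranges are narrower than the uncertainty of either value and cannot decide whether the spreads differ. The SD of log2 CPM was higher in Saline non-conditioned than in Saline conditioned pools in 66.8% of the genes tested in both fits, and higher in LPS non-conditioned than in LPS conditioned pools in 59.9%. For the 54 called genes these numbers were 42 and 41 of 54. Those genes were chosen for a small spread among conditioned pools relative to their change, so their numbers are a description. Unlike the coefficient, the SD of log2 CPM includes counting error, which is larger in shallow libraries. Total counts were 317724, 615505 and 300739 in LPS non-conditioned libraries, and 315422, 189180 and 510210 in Saline non-conditioned libraries. The part of depth in the comparisons of this SD was not tested. With 3 pools a group, whether conditioning or the particular pools went with the smaller spread was not tested.

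**Figure D3:**
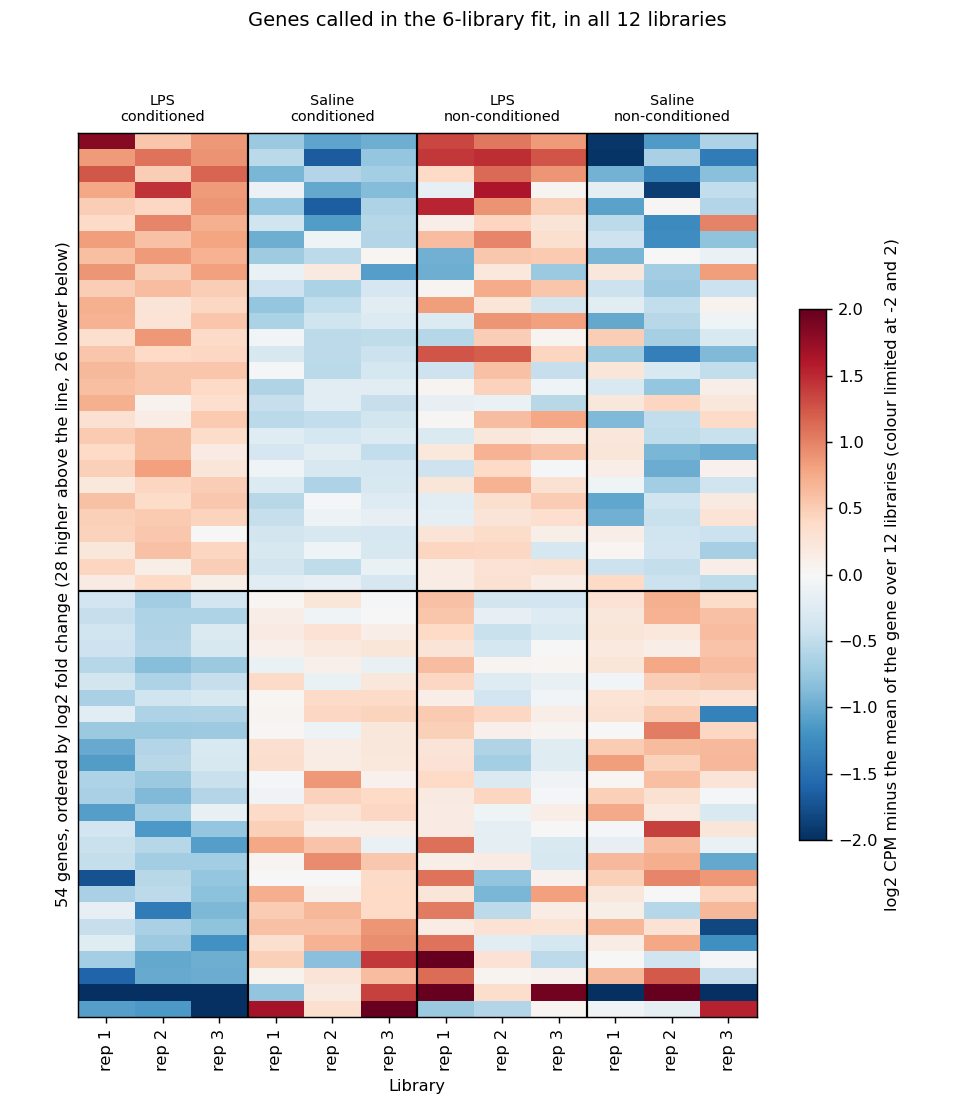
The 54 genes called in the fit on 6 libraries, shown in all 12 libraries as log2 CPM minus the gene's mean, with colour limited at -2 and 2. Each row is a gene and each column a library. The 28 genes above the line are higher in LPS conditioned than in Saline conditioned pools and the 26 below are lower, and within-group differences between columns are wider in the non-conditioned groups.

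The same genes were then read in chicks without conditioning, in libraries that played no part in choosing the 54. Of the 28 genes that rose after conditioning, 26 had a higher level with LPS than with saline without conditioning too, where 48.8% of all 5170 tested genes did. Their median log2 fold change was 0.54 without conditioning, against -0.01 over all tested genes. Of these 28 genes, 8 were called without conditioning, where 0.542% of all genes were called, 0.445% higher and 0.0967% lower. At an unadjusted p under 0.05 there were 17 of the 28, where 4.56% of all genes were higher at that level. Over the alternatives 22 to 26 of the 28 had a higher level with LPS, fewest without LPS non-conditioned replicate 2, and 5 to 11 were called. The 5 were found without LPS non-conditioned replicate 2 and again without Saline non-conditioned replicate 2.

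Next came the 26 genes that fell after conditioning. Without conditioning 20 of the 26 had a lower level with LPS, where 51.2% of all tested genes did. The median log2 fold change was -0.29 and 0 of the 26 were called with edgeR, where 0.0967% of all genes were called lower. With so small a share, a count of 0 is not a result about these genes. At an unadjusted p under 0.05 there were 6 of the 26, where 4.76% of all genes were lower at that level. DESeq2 and both limma alternatives called 0 as well, no filter on low counts called 2, and leaving out LPS non-conditioned replicate 1 called 3. The share of all genes called lower in these alternatives is not given. Over the alternatives the number with a lower level ran from 16 to 23, fewest without Saline non-conditioned replicate 2. The median depended on single pools too. It was -0.48 once LPS non-conditioned replicate 1 was left out, -0.17 once LPS non-conditioned replicate 2 was, and -0.16 once Saline non-conditioned replicate 2 was. In 0 of the 26 genes was the fall without conditioning larger than that with it, where 10 of the 28 rises were larger without conditioning. A smaller change without conditioning is favoured by the choice of genes, which were picked for their change with it.

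Across all 4 groups, the LPS conditioned mean was the lowest in 26 of the 26 genes that fell. Among the 404 tested genes whose LPS conditioned pools all lay below all Saline conditioned pools, it was the lowest in 81.9%. The LPS conditioned mean was the highest in 21 of the 28 genes that rose, where it was so in 70.8% of the 408 genes whose LPS conditioned pools all lay above. All these genes were chosen for a difference between the conditioned groups, which itself favours an extreme LPS conditioned mean. The 404 and 408 genes were not matched to the called ones for size of change, so these ranks are a description. The Saline non-conditioned mean was the highest of the 4 in 14 of the 26 falls and the Saline conditioned mean in 10.

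**Figure D4:**
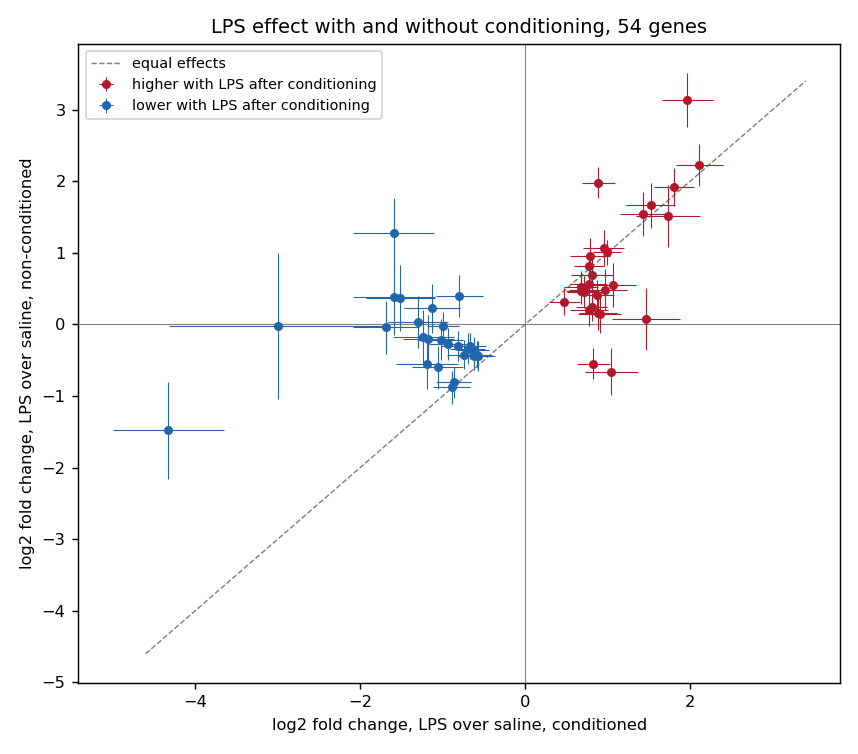
Log2 fold change of LPS over saline with conditioning (x axis) and without it (y axis) for the 54 genes, both from the fit on 12 libraries, with bars of 1 SE. The dashed line marks equal effects. Of the 28 rises, 26 lie above 0 on the y axis and 10 above the dashed line, while all 26 falls lie nearer to 0 than that line or on the other side of 0.

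The difference of the LPS effect, conditioned minus non-conditioned, was called in 0 of 5170 genes with edgeR (0.0%), where the lowest adjusted p was 0.172. Before adjustment 372 genes (7.2%) had p under 0.05. DESeq2 and both limma alternatives called 0, and no filter on low counts called 35. Leaving out Saline non-conditioned replicate 1 called 5, leaving out LPS non-conditioned replicate 3 called 2, and leaving out Saline non-conditioned replicate 2 called 1. An unadjusted p under 0.05 was found in 6 of the 28 rises and 10 of the 26 falls, with smallest adjusted p of 0.217 and 0.354 (edgeR). These counts are raised by the choice of genes, since the conditioned comparison enters the difference. The median half-width of the 95% interval of the difference was 0.72 on the log2 scale over the 54 genes.

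ENSGALG00000027716.2 had a log2 fold change of 2.11 with conditioning and 2.22 without it. The difference was -0.11 (95% interval -0.93 to 0.71, edgeR adjusted p = 0.969). Its non-conditioned pools stood at 2873, 2368 and 2056 CPM with LPS, against 293, 515 and 743 CPM with saline, close to the levels with conditioning. ENSGALG00000020316.5 had a log2 fold change of 1.97 with conditioning and 3.13 ± 0.38 (SE) without it. Its non-conditioned pools stood at 105, 111 and 93.6 CPM with LPS, against 6.10, 21.9 and 11.2 CPM with saline. The saline values rest on 2, 4 and 5 counts, under or just above the floor of 3 counts. The difference was -1.17 (95% interval -2.27 to -0.06), with an unadjusted p of 0.0394 and an edgeR adjusted p of 0.673.

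ENSGALG00000004871.6 had a log2 fold change of -0.997 with conditioning and -0.02 ± 0.20 without it (SE). It stood at 262, 312 and 227 CPM in LPS non-conditioned pools, against 320, 285 and 223 CPM in Saline non-conditioned pools, which overlap. The difference was -0.98 (95% interval -1.55 to -0.40), with an unadjusted p of 0.00195 that did not pass adjustment (edgeR adjusted p = 0.419), in a gene chosen for its fall with conditioning. ENSGALG00000035309.2 had 3, 7 and 6 counts in LPS non-conditioned pools, against 6, 3 and 29 counts in Saline non-conditioned pools. In CPM it had 9.84, 11.4 and 20.1, against 18.3, 16.4 and 64.7, which overlap. Its fitted log2 fold changes, which depend on the prior count, were -4.32 with conditioning and -1.48 ± 0.67 (SE) without it (edgeR adjusted p = 0.510). The difference was -2.84 (95% interval -5.06 to -0.63), with an unadjusted p of 0.0143 and an edgeR adjusted p of 0.549.

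Further genes show how far the pattern varied among the rises. One gene stood at 467, 421 and 424 CPM in LPS conditioned pools, against 253, 220 and 234 CPM in Saline conditioned pools, a log2 fold change of 0.89. Without conditioning it stood at 767, 742 and 431 CPM with LPS, against 192, 121 and 170 CPM with saline, a log2 fold change of 1.98 (edgeR adjusted p = 2.8e-05). Its difference had an unadjusted p of 0.00115 (edgeR adjusted p = 0.386). The 2 rises with the opposite sign without conditioning had log2 fold changes of 1.05 and 0.82 with it, and -0.66 and -0.55 without it, and neither was called without conditioning (edgeR adjusted p = 0.540 and 0.403). Their differences were 1.71 and 1.37, with unadjusted p of 0.00126 and 0.000126 in edgeR. Neither passed adjustment (edgeR adjusted p = 0.386 and 0.217), and both genes were picked for a rise with conditioning and the opposite sign without it.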

How the data were processed

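Raw counts per gene were deposited by the authors for 11207 genes in 12 libraries of 4 groups, per the file headers, and were used unchanged. The deposited normalized counts, a signal equal to the raw count times 1 factor per library, served only to read those factors, and how the authors set them is not stated. Per the labels' protocols, RNA entered bulk MARS-seq, which reads 3′ ends. STAR, HTSeq, cutadapt and DESeq2 are named in the submitters' processing notes with the build galGal5. The sources used here give no versions, annotation, strand or use of molecular identifiers, so counts of overlapping, antisense or near-identical genes are uncertain and counts may be reads or molecules. Exact Poisson intervals and floors cover counting error only, while intervals of the difference by conditioning come from the edgeR standard error, which includes the spread between pools. All value columns were used.

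Genes were kept by filterByExpr (minimum count of 10), scaled by TMM and fitted in edgeR 4.0.16 (R 4.3.3; glmQLFit and glmQLFTest, 2-sided, 1 mean per group, no covariate) on 12 and on 6 libraries, with Benjamini-Hochberg adjustment over all tested genes. The standard error is the log2 fold change divided by the square root of F. The code was tested on simulated data. Alternatives were RLE, DESeq2 1.42.0, limma 3.58.1 with quantile normalization or library weights, other filters, an adjusted p under 0.1, a replicate block and leaving out each library. Scaling by the authors' factors, testing the genes of the larger filter in the smaller fit and the non-conditioned spread with a library left out were added after seeing the data. Chi-square per degree of freedom between replicates of the compared groups was 1.83 to 7.66, and none was treated as a duplicate. The labels give separate pools.

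The comparison and lists were chosen with earlier results of these data known. Genes are named by a rule: called with 12 libraries first, then with 6 alone, a mean of at least 20 CPM, no overlap between groups, ranked by absolute log2 fold change. As 0 of 11207 identifiers matched the 25635 genes of the reference list (GRCg7b), only the first 2 rises and 2 falls are named, other genes appear without identifier, planned gene and marker lists were not applied and no sequence is shown. Those other genes were picked for abundance or pattern after their values were seen.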

Additional observations from a re-analysis of the deposited data

How the results depend on the processing

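The 9 genes called with 12 libraries became 15 with DESeq2, 25 with library weights in limma and 65 with no filter on low counts (26 higher, 39 lower), and leaving out a library gave 2 to 22. The 54 genes called with 6 libraries became 98 at an adjusted p under 0.1 and 143 with no filter, and leaving out a library gave 18 to 89. Pairing pools by number in a replicate block gave 118 genes with 6 libraries (all 54 among them) and 10 with 12 libraries. What same-numbered pools share beyond the number is not stated in the sources used here. Deviations from the group means of same-numbered LPS and Saline conditioned pools correlated at -0.03 to 0.13. Those of LPS and Saline conditioned pools with unlike numbers correlated at -0.16 to 0.12. Whether same-numbered pools were handled together was not tested. The difference by conditioning, 0 in the report, gave 35 genes with no filter, and leaving out a library gave 0 to 5. Apart from the looser threshold, the cause was not tested. All 9 and all 54 genes kept their sign in every alternative that gave a value, and 2 of 9 and 13 of 54 were called in all 20 and all 15 alternatives. The log2 fold change of ENSGALG00000004871.6 without conditioning, -0.02, was 0.091 with quantile normalization and ran from -0.17 to 0.14 with a library left out. It was 0.020, 0.092, 0.14 and 0.018 without LPS non-conditioned replicates 1 and 3 and Saline non-conditioned replicates 1 and 2. The difference by conditioning of ENSGALG00000027716.2, -0.11, ran from -0.61 to 0.16 with a library left out, and was 0.11, 0.029 and 0.16 without LPS conditioned replicates 2 and 3 and Saline non-conditioned replicate 1. For the 4 genes given by identifier, direction and call were as reported in 275 values over all alternatives. A call was lost in 12 and gained in 1, and the sign changed in these 8. Depth limits weakly expressed genes most, as a floor of 3 counts reached 12.7 CPM in the shallowest conditioned library.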

Other observations

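Some strongly expressed genes differed widely between pools of the saline groups and were called in neither fit. Of the tested genes at 300 CPM or more, 5 had an absolute log2 fold change of at least 0.9 without a call, a rule chosen after the data were seen, and all 5 were lower with LPS. Their share of the genes at that level is not given, so number and direction are a description of these 5 genes only. The most abundant stood at 28108, 18053 and 15302 CPM in LPS conditioned pools, against 74516, 26957 and 20777 CPM in Saline conditioned pools. Its log2 fold change was -1.001 ± 0.32 with 6 libraries (SE, edgeR adjusted p = 0.173) and -0.22 without Saline conditioned replicate 1 (edgeR adjusted p = 0.635). Without conditioning it stood at 11028, 11039 and 17972 CPM with LPS, against 13981, 19639 and 45153 CPM with saline, so 1 pool of either saline group held far more of it than the others.

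The same 2 saline pools were high in 3 further genes of the 5. The second gene had 6115, 4130 and 3248 CPM in LPS conditioned pools, against 20622, 6566 and 5693 CPM in Saline conditioned pools, and 12928 CPM in Saline non-conditioned replicate 3. The least abundant had 211, 151 and 172 CPM in LPS conditioned pools, against 1454, 338 and 212 CPM in Saline conditioned pools. Its log2 fold change was -1.93 with 6 libraries (edgeR adjusted p = 0.0627) and -0.54 without Saline conditioned replicate 1 (edgeR adjusted p = 0.217). What these genes are and which cells express them was not tested.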
